A study of Oryza sativa with 6 samples.

Results

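miR162 and miR168 are the plant microRNAs that act on the microRNA machinery itself. Of the 641 miRNA names in the deposited table of germinating rice seeds, 14 belong to the families mir162 and mir168 by the number in the name, 7 in each family, and these 14 names are described here. In rice, miR162 targets the transcript of Dicer-like 1, the enzyme that cuts microRNAs out of their hairpin precursors. miR168 targets transcripts of Argonaute 1, the protein that holds a mature microRNA and cuts the matching messenger RNA. Each of these microRNAs is made by the machinery it limits, which gives both a place in a negative feedback on microRNA production. The strand known to act is the 3p arm of the hairpin for miR162 and the 5p arm for miR168, and the opposite arm is the passenger strand.

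The libraries came from Kasalath rice, a cultivar whose germinating seeds were labelled as 5 days after germination. One group was kept at 25 °C (labelled normal, 3 libraries) and the other at 35 °C throughout (labelled hot, 3 libraries), with no other treatment named, and the comparison asks which small RNAs differ at high temperature. The dishes at 25 °C stood in the laboratory under a box and those at 35 °C in an incubator, so temperature and place of growth cannot be told apart. RNA came from germinating seeds as a bulk, so fewer cells of a type and less RNA per cell cannot be told apart. The table lists miRNA names only, so the tissue could not be checked against marker transcripts. The series text calls the libraries biological triplicates, and the labels do not say which dishes went into which library.

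The counts of a library summed to between 136294 and 377473, and the library totals behind the authors' normalised columns lay between 157488 and 275549. The same reads stand under several names, and in all 3 hot libraries the sum exceeded the total. The sum over the total was 0.56, 0.545 and 0.737 in normal libraries 1 to 3. In hot libraries 1 to 3 it was 1.078, 1.373 and 1.548, so the groups did not overlap. Hot library 1 stood apart from the other hot libraries: over distinct count patterns its chi-square per degree of freedom was 13.8 against hot library 2 and 23.2 against hot library 3, while hot libraries 2 and 3 differed by 9.09 and the normal libraries by 5.13 to 6.96. Repeated entries of reads raise these values. The results on miR162 and miR168 levels and ratios are given with and without hot library 1. Levels are given as counts, as reads over the library total times 1000000 (RPM), and as CPM, the same quantity over the TMM-scaled sum of the counts, which assumes that most names do not change.

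The 14 names hold few separate measurements. In the miR162 family, mir162a-3p and mir162b-3p were exactly 2 times mir162c in all 6 libraries. The name mir162 was 12 times mir162c plus 2, 5 and 4 counts in normal libraries 1 to 3 and 4, 3 and 2 in hot libraries 1 to 3. The name mir162a was 10 times mir162c plus 3, 6 and 4 counts at 25 °C and 4, 3 and 2 at 35 °C, and the name mir162-3p exceeded mir162c by exactly these same numbers. The name mir162b was 6 times mir162c plus 0 to 4 counts. The whole miR162 family thus followed the mir162c row, whose highest count was 65, and its 7 names are not 7 observations.

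In the miR168 family the 5p and 3p arms were separate. The names mir168 and mir168b-5p were identical, and mir168-5p, mir168a and mir168a-5p were each exactly 2 times that row, so 5 names carried 1 pattern, called the 5p row here for its -5p names. The 3p arm had 2 rows of its own, mir168a-3p and mir168-3p, that were no whole multiple of each other.

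The share of miR162 was lowest in hot libraries 2 and 3 and highest in hot library 1. The name mir162c had 55, 65 and 58 counts in normal libraries 1 to 3 and 45, 31 and 42 in hot libraries 1 to 3. As a share this was 208.2, 259.7 and 210.5 RPM at 25 °C and 285.7, 128.9 and 172.2 at 35 °C. Hot library 1 held the highest share of the 6 and hot libraries 2 and 3 the lowest, so the groups overlapped. The exact (Clopper-Pearson) 95% binomial interval of hot library 2, 87.6 to 183.0, lay below that of normal library 2, 200.5 to 331.0, but it overlapped those of normal library 1 (156.9 to 271.1) and normal library 3 (159.8 to 272.1). These intervals cover counting error only, since reads without molecular identifiers are not independent molecules.

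For mir162, the most abundant name of the family, the share was 2728 ± 354.5 RPM at 25 °C and 2363 ± 979.5 at 35 °C (SD, n = 3 each). The difference of -364.9 RPM was smaller than the spread within the hot group (exact two-sided permutation test p = 0.5, adjusted p = 0.5 over 8 such tests, of which the smallest p possible with 3 against 3 libraries is 0.1). Without hot library 1 the difference was -910.6, and without hot library 2 it was 36.7.

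After TMM scaling the same counts gave a wider gap. The name mir162 had 4621, 5479 and 3009 CPM at 25 °C and 3453, 1198 and 1375 CPM at 35 °C. Hot library 1 again lay among the normal libraries, above normal library 3. The log2 fold change was -1.13 (SE 0.44) with adjusted p = 0.0925 in edgeR, not past 0.05, and the other 6 names of the family had -1.13 to -1.14. In the same fit 58 of 253 tested names were called, which is 22.9%, and 15.8% were called lower, while 0 of the 14 miR162 and miR168 names were called. All 14 passed the filter on low counts. Before adjustment 5 of the 14, all of miR162, had p under 0.05 in edgeR, against 120 of all 253 tested names. The DESeq2 test called 3 of them lower (mir162, mir162a and mir162b), with 15.8% of all names called lower. In limma-voom 5 were lower, all of miR162, with 17.4% of all names called lower. The single row mir162c passed in neither (adjusted p = 0.108 in the DESeq2 test and 0.0548 in limma-voom). Nor did mir162-3p, close to the single row (adjusted p = 0.112 in the DESeq2 test and 0.0558 in limma-voom). The names that passed enter the mir162c reads several times and add few counts to them.

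Leaving out hot library 1 changed this: all 7 miR162 names were then lower past the threshold, with edgeR log2 fold changes of -1.74 for mir162 (SE 0.23, adjusted p = 0.00563) and -1.73 for mir162c (adjusted p = 0.0144). With hot library 1 left out, 120 of 276 names (43.5%) were called and 20.3% were called lower, so the share of names called lower was itself above that of the 6-library fit. These 7 calls come from the near-multiples of mir162c described above. With the deposited library totals in place of TMM, mir162 had -0.21 (SE 0.31, adjusted p = 0.581), and -0.59 (adjusted p = 0.0914) when hot library 1 was also left out.

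The scale decides these sizes, because the log2 fold change of the median tested name was 0.01 after TMM scaling and 0.99 on the totals. Relative to that median, the miR162 family median lay at -1.14 under TMM and at -1.21 with the totals. This distance was not tested, and it moved with single libraries: leaving out hot library 1 gave -1.58 under TMM and -1.53 with the totals, while leaving out hot library 2 gave -0.74 and -0.84. It was -0.81 under TMM when each set of repeated rows entered once, and -0.98 when the miR156 names were left out. In that last fit mir162 itself had -0.75 (adjusted p = 0.358 in edgeR).

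**Figure D1:**
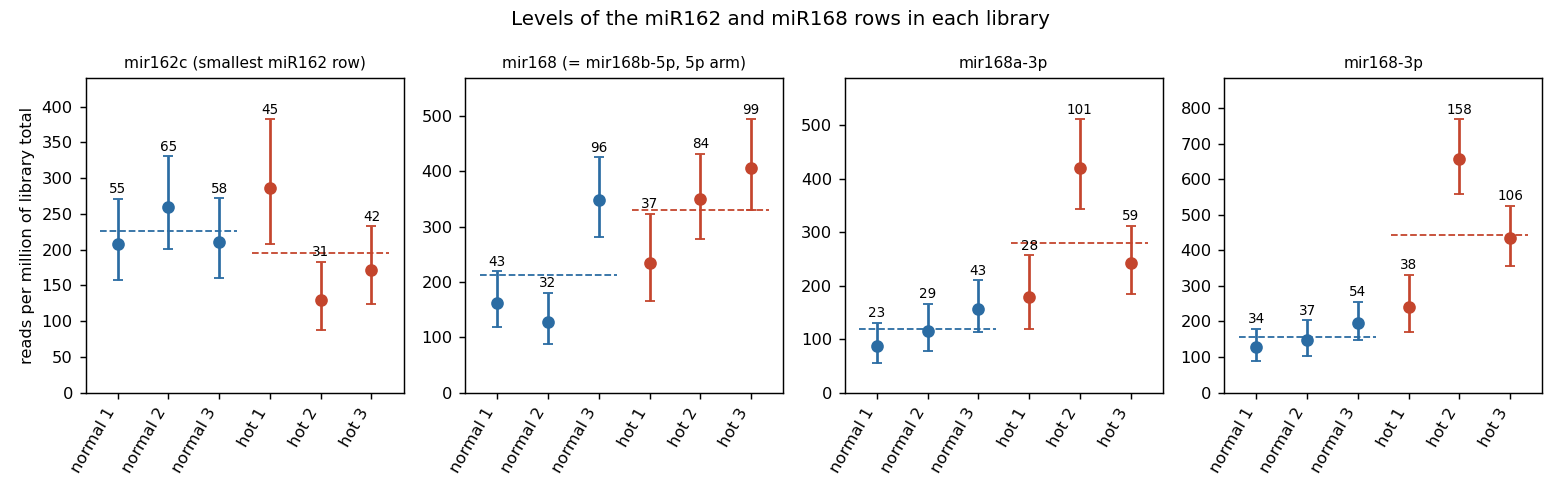
RPM, reads over the library total times 1000000 (vertical axis, a separate range in each panel) for the 4 rows that carry the miR162 and miR168 reads, in normal (blue, 25 °C) and hot (red, 35 °C) libraries. Points are single libraries with exact 95% binomial intervals, the number above each is its count, and dashed lines are group means. Hot library 1 has the highest mir162c share, 285.7, and the lowest share of the hot group in each miR168 row.

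The acting strand of miR168, the 5p row, had overlapping levels in the normal and hot libraries. It had 43, 32 and 96 counts at 25 °C and 37, 84 and 99 at 35 °C. The share was 162.8, 127.9 and 348.4 RPM at 25 °C and 234.9, 349.4 and 406.0 at 35 °C. Normal library 3 stood at the level of hot library 2 and above hot library 1, so the groups overlapped. The means were 213.0 ± 118.5 and 330.1 ± 87.1 RPM (SD, n = 3 each; exact two-sided permutation test p = 0.2, adjusted p = 0.32 over 8 tests). The difference was 117.1 RPM with all libraries and 164.6 without hot library 1.

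The direction of the 5p row depended on the scale. Under TMM mir168 had 312.0 ± 95.2 CPM at 25 °C and 257.4 ± 19.5 CPM at 35 °C, which edgeR put at -0.28 on the log2 scale (SE 0.28, adjusted p = 0.493), and at -0.24 without hot library 1. With the library totals it was 0.63 (SE 0.48, adjusted p = 0.317), and 0.82 (adjusted p = 0.183) without hot library 1. Normal library 3 mattered most on that second scale: without it mir168 had 1.18 (adjusted p = 0.071), and the doubled rows mir168-5p, mir168a and mir168a-5p had adjusted p = 0.0424 at the same 1.18, in a fit that called 38.8% of 289 names higher. Reads entered with a doubled count passed where the single row did not, and these 3 calls add no reads to those of the single row. The miR168 family median, a value of the 5p row, lay at -0.29 from the median tested name under TMM and at -0.36 with the totals. Without normal library 3 this distance was 0.0008 and 0.0, and it was not tested. With each set of repeated rows entered once under TMM, the family median was the value of mir168a-3p and lay at 0.54 from the median tested name. The 5p row itself then had -0.18, against -0.15 for the median tested name.

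The miR168 passenger strand had its highest counts and RPM in hot libraries 2 and 3. The name mir168-3p had 34, 37 and 54 counts at 25 °C and 38, 158 and 106 at 35 °C. Its share was 128.7, 147.8 and 196.0 RPM at 25 °C and 241.3, 657.2 and 434.7 at 35 °C. Every hot library lay above every normal library on this scale, although the intervals of hot library 1 (170.8 to 331.2) and normal library 3 (147.2 to 255.7) overlapped.

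With the library totals mir168-3p was higher by 1.50 on the log2 scale (SE 0.46, adjusted p = 0.0334 in edgeR) and was the only 1 of the 14 names called. In that fit 32.3% of 266 names were called higher, and in 42.5% of the 266 every hot library exceeded every normal library, so such a rise was common on that scale. The call was lost without normal library 1 (adjusted p = 0.12) or normal library 2 (adjusted p = 0.109). It was also lost without hot library 2 (adjusted p = 0.181) or hot library 3 (adjusted p = 0.0874). These fits gave 1.10 to 1.51 on the log2 scale. The call was kept without normal library 3 (adjusted p = 0.0181), where 38.8% of 289 names were called higher. Without hot library 1 it was kept at 1.79 (adjusted p = 0.00565), where 47% of 285 names were called higher. Under TMM mir168-3p had 242.6 ± 13.8 CPM at 25 °C and 344.7 ± 140.6 CPM at 35 °C (log2 fold change 0.51, SE 0.32, adjusted p = 0.245), and the value was 0.71 (adjusted p = 0.118) without hot library 1 and 0.05 without hot library 2.

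The second 3p row, mir168a-3p, had 23, 29 and 43 counts at 25 °C and 28, 101 and 59 at 35 °C. In RPM its hot libraries, at 177.8, 420.1 and 241.9, also lay above the normal libraries, at 87.1, 115.9 and 156.1. Its log2 fold change was 0.27 under TMM (SE 0.35, adjusted p = 0.571) and 1.23 with the library totals (SE 0.47, adjusted p = 0.084), neither past the threshold. With the totals it passed without hot library 1 (1.46, adjusted p = 0.0287), where 47% of 285 names were called higher. It also passed without normal library 3 (1.47, adjusted p = 0.0476). In that fit 38.8% of 289 names were called higher and the median tested name had 1.18. In CPM hot library 3 had 160.4, the lowest of the 6, and hot library 2 had 322.7, the highest. Under TMM its value was 0.39 without hot library 1 and turned to -0.20 without hot library 2, the library with the highest count.

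The gap between the 2 rows of the 3p arm was widest in hot libraries 2 and 3. The name mir168-3p exceeded mir168a-3p by 11, 8 and 11 counts at 25 °C and by 10, 57 and 47 counts at 35 °C. Hot library 1 again had the value of a normal library. This excess made up 24.8% ± 6.59 of mir168-3p at 25 °C and 35.6% ± 9.02 at 35 °C (SD, n = 3 each), and the groups overlapped (exact two-sided permutation test p = 0.2, adjusted p = 0.32 over 8 tests). Without hot library 1 the difference was 15.4 percentage points, against 10.8 with it. This comparison was not planned, and which sequences the excess counts hold was not examined.

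**Figure D2:**
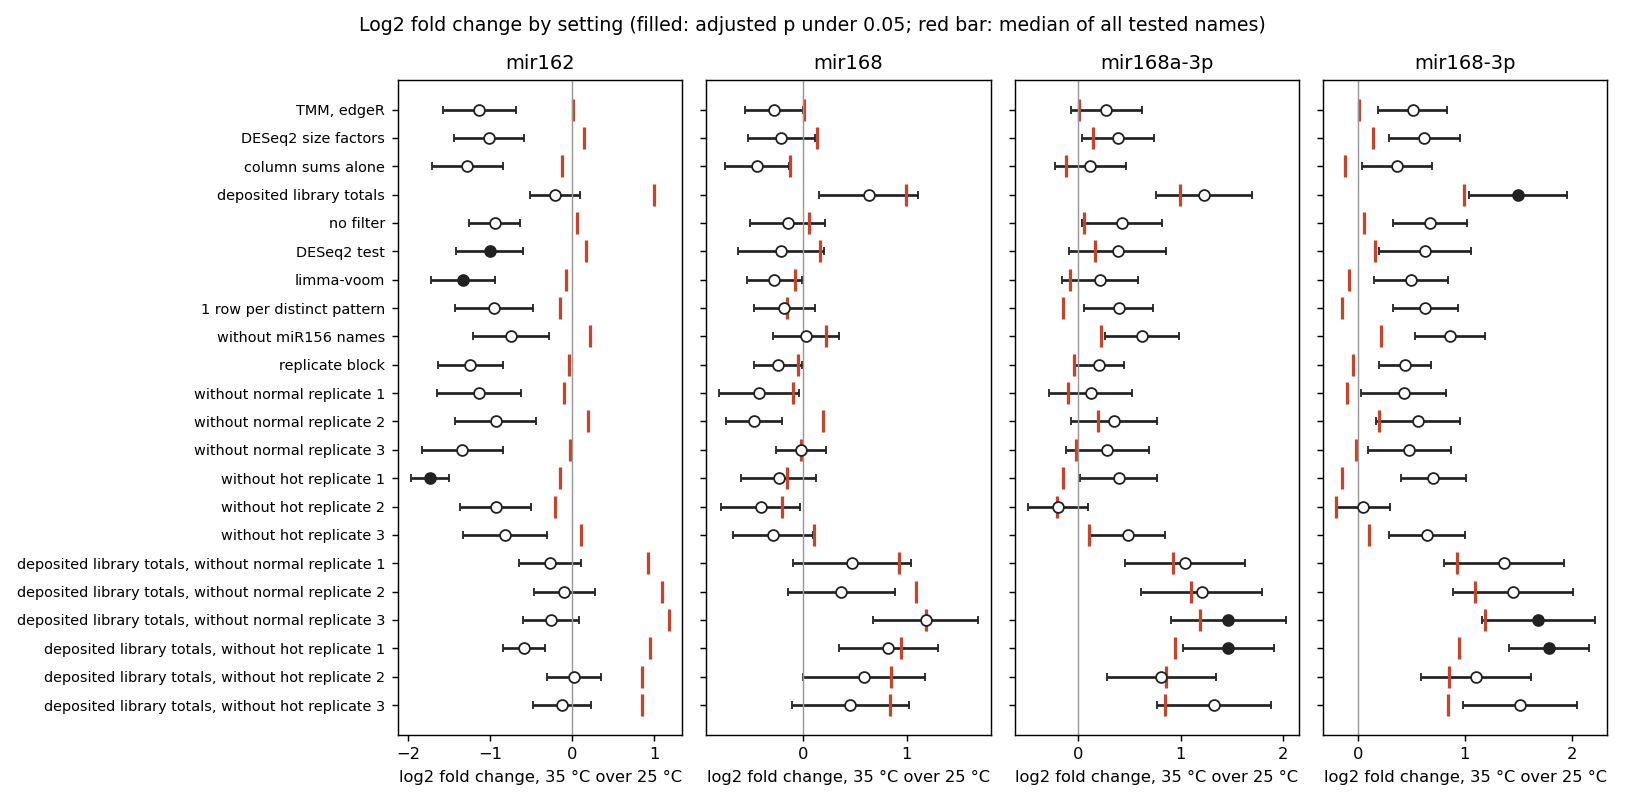
Log2 fold change of 35 °C over 25 °C (horizontal axis, a separate range in each panel) for mir162, mir168, mir168a-3p and mir168-3p under each scaling, test and left-out library (vertical axis). Circles show the value with its SE, filled where adjusted p was under 0.05, and the red bar is the median of all names tested in that setting. The mir162 value lies left of the median in every setting drawn, and the median moves from 0.01 under TMM to 0.99 with the library totals.

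A ratio of 2 rows of the same library does not depend on how libraries are scaled. The level of such a ratio has no meaning of its own, since reads are entered a different number of times under different names, and only its change between libraries is read here. For each mir168 count there were 15.4, 24.5 and 7.29 mir162 counts in normal libraries 1 to 3 and 14.7, 4.46 and 5.11 in hot libraries 1 to 3. Hot libraries 2 and 3 had the fewest mir162 counts per mir168 count, and hot library 1 lay inside the normal range.

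On the log2 scale, with 0.5 added to each count, the ratio of mir168 to mir162 was -3.80 ± 0.88 at 25 °C and -2.79 ± 0.93 at 35 °C (SD, n = 3 each). The difference of 1.01 corresponds to a 2.01-fold higher ratio, larger than the SD of either group, and the groups overlapped (exact two-sided permutation test p = 0.2, adjusted p = 0.32 over 8 tests). Leaving out 1 library gave 0.61 (without normal library 2) to 1.55 (without hot library 1), the same direction each time.

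The ratios of the passenger strand to miR162 had differences of the same sign. The log2 ratio of mir168-3p to mir162c was -0.69, -0.80 and -0.10 at 25 °C and -0.24, 2.33 and 1.33 at 35 °C, a difference of 1.67. For mir168a-3p to mir162c the difference was 1.44. In both, hot library 1 fell within the normal range and hot libraries 2 and 3 above it (exact two-sided permutation test p = 0.2 for each, adjusted p = 0.32 over 8 tests). Without hot library 1 the differences were 2.36 and 2.03. These ratios were not planned, share the mir162c counts with the first one and are not separate evidence.

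Within miR168, the 5p row stood to mir168a-3p at 1.87, 1.10 and 2.23 counts per count at 25 °C and 1.32, 0.832 and 1.68 at 35 °C. The log2 difference was -0.43, and -0.49 without hot library 1 (exact two-sided permutation test p = 0.4, adjusted p = 0.457 over 8 tests). Against mir168-3p, a pair added after the values were seen, the 5p row stood at 1.26, 0.865 and 1.78 at 25 °C and 0.974, 0.532 and 0.934 at 35 °C. That log2 difference was -0.67, and -0.82 without hot library 1 (exact two-sided permutation test p = 0.3, adjusted p = 0.4 over 8 tests). Normal library 2 lay among the hot libraries in both pairs, so the groups overlapped. Of the 8 exact permutation tests, only those of the mir168 to mir162 ratio and of the mir162 and mir168 shares were planned.

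**Figure D3:**
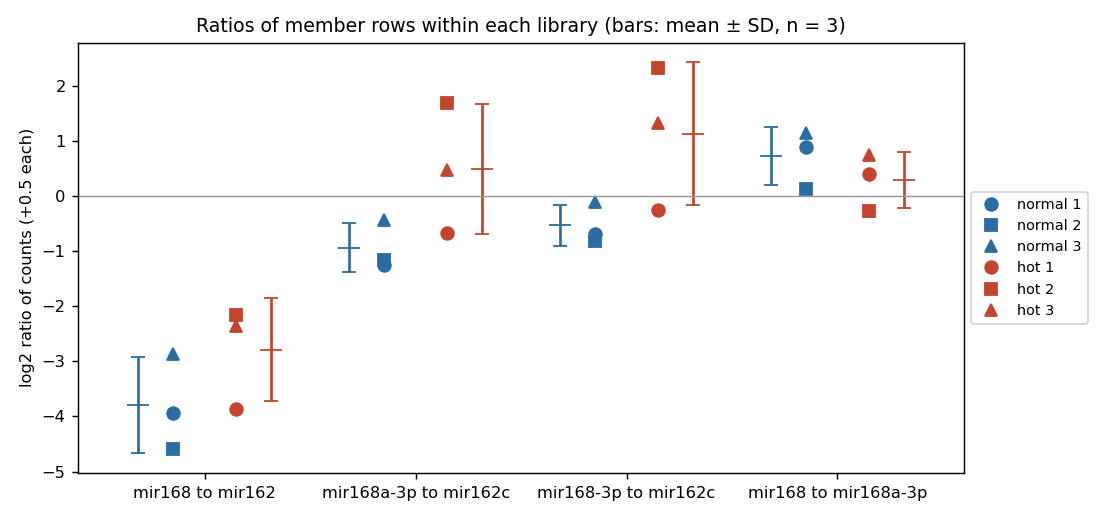
Log2 ratio of counts of 2 member rows within each library, with 0.5 added to each count (vertical axis), for 4 pairs of rows (horizontal axis). Symbols are single libraries, blue for 25 °C and red for 35 °C, and bars are the group mean ± SD (n = 3). Hot library 1 (red circle) lies within the range of the normal libraries in each pair, and in the 3 ratios to a miR162 row hot libraries 2 and 3 lie above that range.

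Other miRNAs tied to small RNA pathways were looked for by name. The table held 18 names of this list, 16 of miR390 and 2 of miR2118, and none of miR403, miR482, miR2275, miR173 or miR828. miR390 works with Argonaute 7 to start the production of trans-acting small interfering RNAs, and miR2118 starts phased small RNAs in grass flowers. The 8 tested names were all of miR390, in 4 count patterns, with 0 called higher and 0 called lower in edgeR, against 22.9% of all tested names called. None of the 8 had an unadjusted p under 0.05 in edgeR, against 120 of all 253 tested names. The DESeq2 test and limma-voom called 0 of the 8 as well, against 104 and 62 of 253 names. For mir390-3p the counts were 9, 10 and 10 at 25 °C and 9, 31 and 25 at 35 °C (log2 fold change 0.38, adjusted p = 0.54). The 5p name mir390a-5p had 10, 0 and 30 against 5, 25 and 20 counts (log2 fold change -0.28, adjusted p = 0.89). The miR2118 names reached at most 2 counts in a library and were not tested.

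The names of other families whose log2 CPM ran most closely with each family over the 6 libraries are given as a description, since all share these libraries and their scaling. For mir162 they were mir166j-5p (Pearson r = 0.971), mir166e-5p (0.968), mir166d-5p (0.95), mir3630-3p (0.944) and mir159c-3p (0.929). Of these only mir3630-3p passed the threshold, with 32, 37 and 41 counts at 25 °C and 13, 8 and 14 at 35 °C (log2 fold change -2.22, adjusted p = 0.0242 in edgeR). The counts in a library were 0 to 12 for mir166j-5p, 10 to 16 for mir166e-5p and 9 to 13 for mir166d-5p, so their correlations rest on few reads. For mir168 the closest names were mir444b-1 (r = 0.916), mir444c-1 (0.855), mir171c (0.842), mir171d (0.835) and mir171a (0.786), none past the threshold. The nearest, mir444b-1, had 19, 14 and 42 counts at 25 °C and 15, 28 and 43 at 35 °C, high in normal library 3 as the 5p row of miR168 was.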

How the data were processed

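Small RNA was isolated from germinating seeds and made into libraries with a NEBNext small RNA kit, per the labels' protocols. The authors deposited 1 table with, per the file headers, raw and normalised expression for each library. Raw columns hold whole counts per miRNA name. The deposited normalised score is the count over 1 total per library, times 1000000, and served to recover that total, as the median over rows with a count above 20. In hot library 3, 4 miR156 rows depart from it by more than 0.5. For read matching, miRNA database and genome build the sources used here name nothing. Columns were mapped through the labels' sample descriptions.

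All 6 libraries entered 1 edgeR fit (version 4.0.16, R 4.3.3) with TMM factors after filterByExpr, and temperature was tested by the quasi-likelihood F test, with Benjamini-Hochberg adjustment over all tested names and a threshold of 0.05. The SE is the log2 fold change over the square root of F. Alternatives used DESeq2 1.42.0, limma 3.58.1, other scalings, 1 row per set of identical or whole-multiple rows, a replicate block and left-out libraries. Scripts were tested on simulated data. Shares and ratios were compared by exact permutation (scipy 1.17.1). Named are all members, the 5 names of other families closest by Pearson r of log2 CPM (prior count 2), and the tested names of the small RNA pathway list. Members and lists were chosen with earlier results of these data known.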

Additional observations from a re-analysis of the deposited data

How the results depend on the processing

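The number of names called, 58 in the 6-library TMM fit, was 31 with DESeq2 size factors, 104 in the DESeq2 test, 25 without the miR156 names and 26 to 120 when 1 library was left out (26 without normal library 2, 120 without hot library 1). The split of 18 higher and 40 lower became 86 and 1 with the library totals, 51 and 15 without a filter and 31 and 27 with 1 row per distinct pattern. Of the 14 miR162 and miR168 names, 0 were called in the 6-library TMM fit, 1 with the library totals, 3 in the DESeq2 test, 5 in limma-voom and 0 to 7 with 1 library left out (7 without hot library 1). With the library totals and 1 library left out, which was added after seeing the data, 0 to 5 were called (5 without normal library 3, 2 without hot library 1). These calls were all higher, where 38.8% of all tested names were called higher without normal library 3 and 47% without hot library 1.

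The miR162 values were below 0 in every setting but 1: with the library totals and without hot library 2 they were 0.01 to 0.02. The 5 names of the miR168 5p row turned to 0.03 without the miR156 names, to 0.63 with the library totals and, with the totals and 1 library left out, to 0.47, 0.37 and 1.18 (normal libraries 1 to 3) and 0.82, 0.59 and 0.46 (hot libraries 1 to 3). The mir168a-3p value turned to -0.20 without hot library 2 and was at most 0.48 over the other left-out libraries under TMM. The share of mir162 differed by -910.6 to 36.7 RPM with 1 library left out, above 0 without hot library 2. The log2 ratio of mir168 to mir162 kept its direction in every alternative that could move it, from 0.61 to 1.55. The cause of these changes was not tested.

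Replicate numbers did not pair the libraries: deviations of same-numbered libraries had correlations of 0.498, -0.319 and 0.028. With a replicate block 63 names were called, 28 higher and 35 lower, and 0 of the 14. For the log2 ratio of mir168 to mir162 the block leaves the difference at 1.01 by construction, and its exact sign-flip permutation p = 0.25 is the smallest that 3 pairs allow, so it tests nothing. Counts of 23 to 158 in the separate miR162 and miR168 rows, and 3 libraries a group, limit what could be detected.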
